A study of Mus musculus with 2 samples.

Results

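The genes described here are long noncoding RNAs that stay largely in the nucleus: *Malat1*, *Neat1*, *Miat*, *Meg3*, *Rian*, *Mirg*, *Kcnq1ot1*, *Snhg11*, *Mir124a-1hg* and *Dlx6os1*. They were chosen by symbol from a list of 10, of which 9 had a row among the 31053 genes of the files. *Rian* was not analysed here. Their unique molecular identifiers (UMIs, each marking 1 captured RNA molecule) were followed across cell classes, across barcodes with few UMIs and between both libraries, as a reading of how much nuclear RNA a barcode holds.

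The data are single-nucleus RNA sequencing of the entorhinal cortex of male APP/PS1 mice, transgenic animals that deposit amyloid in the brain. One library, named OLE, pooled 5 mice that received N-oleoyl-leucine (C18:1-Leu) at 25 mg/kg/day in alkaline drinking water, and the other, named vehicle, pooled 5 mice given DMSO by the same route. Treatment ran from 15 to 18 months of age, and both libraries carry the APP/PS1 transgenes, so that no wild-type group enters. With 1 pooled library per condition there is no replicate, no test between the conditions was run, and every interval below is a 95% interval that covers counting error only, not differences between mice or preparations.

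Long noncoding RNAs of this kind act in the nucleus, where they are retained, and are not known for the proteins they encode. *Malat1* accumulates in nuclear speckles, where splicing factors are stored, and *Neat1* is the RNA scaffold of paraspeckles. *Meg3*, *Rian* and *Mirg* are made from the maternal copy of the imprinted Dlk1-Dio3 region, *Kcnq1ot1* is made from the paternal copy of the Kcnq1 region and silences neighbouring genes there, and host transcripts such as *Snhg11* and *Mir124a-1hg* carry small RNAs. Because these RNAs are nuclear, while transcripts encoded by mitochondria and the mRNAs of cytosolic ribosomal proteins are abundant in cytoplasm, the shares of a barcode's UMIs taken by each set describe what that barcode holds.

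The vehicle library held 6745 barcodes and 70845739 UMIs (median 3989 UMIs per barcode), and the OLE library 6173 barcodes and 69485537 UMIs (median 6392), with 14 barcode sequences in both. Barcodes in the top 5% of doublet scores were left out, which kept 6414 vehicle and 5884 OLE barcodes. These were clustered without the members among the variable genes, so that the members' own levels did not make the clusters, and clusters were named from marker genes. The classes were glutamatergic-like (3110 barcodes in 10 clusters), GABAergic-like (676), oligodendrocyte-like (1116), oligodendrocyte precursor cell-like (OPC-like, 185), microglia-like (605), astrocyte-like (258), vascular leptomeningeal-like (167) and endothelial-like (58, with mural genes among its leading genes). The clusters without a name were grouped into low-UMI barcodes (4527), mitochondria-rich barcodes (783, with a median of at least 5% mitochondrially encoded UMIs) and 813 others. The low-UMI barcodes formed 2 clusters that split by library: one held 2249 vehicle and 342 OLE barcodes and the other 239 and 1697, so that neither can be told apart from its library.

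Together the 9 RNAs took 3.87% of all UMIs in the vehicle library and 4.22% in the OLE library. *Malat1* held more UMIs than any other gene in both libraries, with 1617583 UMIs (2.28%) in vehicle and 1815857 (2.61%) in OLE. *Meg3* came second in both, with 0.981% and 0.966% of UMIs, and *Snhg11* ranked 16 and 15 with 0.445% and 0.490%. The other 6 ranged from *Kcnq1ot1*, at 0.0688% and 0.0649%, down to *Dlx6os1*, at 32.8 and 34.9 UMIs per 1000000 UMIs (counts scaled to a common total, CPM). These ranks are of UMIs captured at 3′ ends and are no comparison of molecule numbers between genes. At least 1 *Malat1* UMI was found in every retained barcode of every class, low-UMI barcodes included (0 of 2488 vehicle and 0 of 2039 OLE low-UMI barcodes lacked it, which allows shares of up to 0.148% and 0.181%).

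The nuclear-body RNAs differed from each other in which class held them. *Malat1* (chr19:5795690-5802672 on GRCm38, also called mm10, minus strand) was highest in astrocyte-like barcodes, at 50747 CPM in vehicle and 55654 in OLE. It was next highest in oligodendrocyte-like barcodes (39775 and 41700) and lowest among the 6 main classes in microglia-like barcodes (17010 and 17977). The highest class stood 2.98-fold over the lowest in vehicle and 3.10-fold in OLE, and the order of the 6 classes was the same in both libraries. Glutamatergic-like barcodes held 23130 and 27160 CPM and GABAergic-like barcodes 20688 and 23004. Within the glutamatergic-like class the 10 clusters ran from 17644 to 31046 CPM, a 1.76-fold range.

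*Neat1* (chr19:5824708-5845478, minus strand), the neighbour of *Malat1* on the chromosome, was the most unevenly spread of the nuclear-body RNAs. Oligodendrocyte-like barcodes held 2029 CPM in vehicle (interval 1969 to 2089) and 1925 in OLE (1861 to 1990). Glutamatergic-like barcodes held 7.40 (6.55 to 8.34) and 9.02 (8.02 to 10.1), which overlapped the intervals of GABAergic-like barcodes at 9.38 (7.25 to 11.9) and 8.37 (6.29 to 10.9). The highest class was therefore 274-fold over the lowest in vehicle and 229.9-fold in OLE. Between these extremes, vascular leptomeningeal-like barcodes held 914 and 865 CPM, astrocyte-like barcodes 283 and 311, and microglia-like barcodes 181 and 169.7. After every barcode had been thinned to 1000 UMIs, *Neat1* was found in 80.5% of oligodendrocyte-like barcodes in vehicle (472 of 586, interval 77.1 to 83.7%) and 76.4% in OLE. In glutamatergic-like barcodes it was found in 0.377% and 0.987% (13.9% and 14.8% without thinning, at median depths of 20593 and 18662.5 UMIs). The low-UMI barcodes, at 323.5 and 249.4 CPM, stood far above the glutamatergic-like ones.

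*Miat* (chr5:112213228-112229395, minus strand), a nuclear RNA of neurons that lies in its own nuclear domains, was the only one of the 9 to be highest in glutamatergic-like barcodes among the 6 main classes, at 366.3 CPM in vehicle and 366.0 in OLE. GABAergic-like barcodes held 116.8 and 121.4 CPM, which is 31.9% and 33.2% of that level. The remaining main classes held 29.75 to 108.5 CPM, lowest in astrocyte-like barcodes. Among the glutamatergic-like clusters *Miat* ran from 267.7 to 482.5 CPM.

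Among the RNAs of the imprinted regions, *Meg3* and *Mirg* were mainly neuronal and *Kcnq1ot1* was more even. *Meg3* (chr12:109541001-109571726, plus strand) was highest in GABAergic-like barcodes, at 13609 and 13856 CPM, followed by glutamatergic-like barcodes at 10312 and 10132. Microglia-like barcodes held 1992 and 2559, oligodendrocyte-like 1440 and 1467, OPC-like 1081 and 1130 and astrocyte-like 849.3 and 770.0. In OPC-like and astrocyte-like barcodes at equal depth, *Meg3* was still found in 64.4% and 57.4% of vehicle barcodes (100% and 99.2% without thinning). *Mirg* (chr12:109729764-109749460, plus strand), which lies downstream of *Meg3* on the same strand, followed the same order at the top, with 239.9 and 257.6 CPM in GABAergic-like and 165.4 and 168.9 in glutamatergic-like barcodes. No other main class held more than 34.8 CPM of it, and these rested on 7 to 35 UMIs per library.

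*Kcnq1ot1* (chr7:143203458-143296549, minus strand), transcribed against *Kcnq1*, varied over about the same narrow range between classes as *Malat1*. It held 758.8 and 735.3 CPM in GABAergic-like barcodes, 717.9 and 682.9 in glutamatergic-like and 580.6 and 601.0 in OPC-like. Oligodendrocyte-like barcodes (437.5 and 358.5) and microglia-like barcodes (377.7 and 427.1) exchanged places between the libraries, and their intervals overlapped in both. Astrocyte-like barcodes were lowest at 236.8 and 241.4, so that among these 6 classes the highest class was 3.20-fold over the lowest in vehicle and 3.05-fold in OLE. Vascular leptomeningeal-like barcodes, outside these 6, held 773.7 and 775.9. Whether the counting used strand is not given in the sources used here, so UMIs of *Kcnq1ot1* and *Kcnq1*, and of other overlapping genes, may have been split between partners.

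The promoter windows of the imprinted RNAs, 250 bases before and 50 after the RefSeq start on GRCm38.p6, are shown for *Meg3* and *Kcnq1ot1*, the most counted RNA of each region. The motifs searched, each on both strands, were TATAAA, TGACGTCA (the cyclic AMP response element), CCAAT and TAATTA (a homeodomain core). Capitals mark the matches. Of 2 RefSeq windows of *Meg3*, the one at chr12:109540746-109541045 (plus strand) holds 1 TGACGTCA, found in 1.79% of 32851 mouse promoter windows of the same length, with 1 CCAAT (37.4% of windows) and TATAAA on both strands in overlapping positions (13.6%). The *Kcnq1ot1* window at chr7:143296498-143296797 (minus strand) holds 3 CCAAT.
Meg3: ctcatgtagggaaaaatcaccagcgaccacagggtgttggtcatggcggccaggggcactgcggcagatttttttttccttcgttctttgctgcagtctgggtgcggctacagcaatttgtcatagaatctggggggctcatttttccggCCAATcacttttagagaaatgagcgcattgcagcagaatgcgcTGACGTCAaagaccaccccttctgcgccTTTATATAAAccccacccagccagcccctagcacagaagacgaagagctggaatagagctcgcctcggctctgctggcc
Kcnq1ot1: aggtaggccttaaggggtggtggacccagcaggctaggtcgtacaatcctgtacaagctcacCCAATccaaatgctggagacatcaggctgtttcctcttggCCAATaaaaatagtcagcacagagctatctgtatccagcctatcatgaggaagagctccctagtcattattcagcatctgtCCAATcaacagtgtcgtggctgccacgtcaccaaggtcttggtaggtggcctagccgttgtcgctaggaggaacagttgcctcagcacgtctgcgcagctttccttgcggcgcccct

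*Meg3* and *Mirg* also give rise to microRNAs. In RefSeq, 3 mature microRNAs lie within the annotated span of *Meg3* on its strand, 26 within that of *Mirg* and 6 within that of *Rian*. Their host transcripts were counted here and the microRNAs themselves were not. The 3 of *Meg3* share no seed (bases 2 to 8, in capitals), and the 26 of *Mirg* carry 25 seeds, the only shared one being that of mmu-miR-453 and mmu-miR-496a-5p. They are shown as the sequences the hosts carry and for that shared seed.
mmu-miR-1906 (Meg3): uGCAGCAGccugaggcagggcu
mmu-miR-770-5p (Meg3): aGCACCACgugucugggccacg
mmu-miR-770-3p (Meg3): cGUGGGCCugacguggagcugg
mmu-miR-453 (Mirg): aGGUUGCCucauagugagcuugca
mmu-miR-496a-5p (Mirg): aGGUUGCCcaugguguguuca

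The host transcripts *Snhg11* and *Mir124a-1hg* were again highest in neurons among the 6 main classes. *Snhg11* (chr2:158375638-158386145, plus strand), a host of small nucleolar RNAs that the annotation used here lists as protein coding, held 5552 and 6241 CPM in GABAergic-like barcodes and 4274 and 4647 in glutamatergic-like ones. It fell to 511.8 and 588.4 in OPC-like and 524.6 and 556.0 in astrocyte-like barcodes, whose intervals overlapped. *Mir124a-1hg* (chr14:64587331-64593961, plus strand), host of the neuronal microRNA miR-124, held 263.6 and 284.0 in GABAergic-like and 233.9 and 234.9 in glutamatergic-like barcodes, and 38.2 and 46.9 in astrocyte-like ones. Both were higher still in the low-UMI barcodes, at 7634 and 7440 CPM for *Snhg11* and 503.9 and 479.5 for *Mir124a-1hg*.

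*Dlx6os1* (chr6:6820189-6871592, minus strand), also called Evf2, is transcribed from the *Dlx5* and *Dlx6* region, whose homeodomain factors specify forebrain interneurons. It held 264.9 CPM in GABAergic-like barcodes of vehicle (interval 253.0 to 277.2) and 277.8 in OLE (265.1 to 290.9), against 1.55 and 1.93 in glutamatergic-like ones. The GABAergic-like clusters differed 4.02-fold. The cluster led by *Adarb2* and *Vip* held 547.2 CPM and the one led by *Nxph1* and *Sst* 136.2. After thinning to 1000 UMIs, *Dlx6os1* was found in 21.2% of GABAergic-like barcodes in vehicle (69 of 325, interval 16.9 to 26.1%) and 23.65% in OLE, and in 0.189% and 0.395% of glutamatergic-like barcodes, which should lack it. Without thinning these shares were 85.5% in both libraries against 3.46% and 3.42%. Of its 2 RefSeq promoter windows, that at chr6:6869484-6869783 (minus strand) is shown because it holds the homeodomain core TAATTA 2 times, a motif present in 5.29% of promoter windows, beside 2 CCAAT.
Dlx6os1: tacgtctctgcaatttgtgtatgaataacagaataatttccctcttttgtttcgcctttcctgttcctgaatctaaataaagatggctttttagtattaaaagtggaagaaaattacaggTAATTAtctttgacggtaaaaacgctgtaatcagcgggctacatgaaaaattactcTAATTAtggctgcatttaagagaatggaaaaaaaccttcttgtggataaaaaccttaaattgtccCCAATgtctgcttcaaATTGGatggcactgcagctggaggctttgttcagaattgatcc

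**Figure D1:**
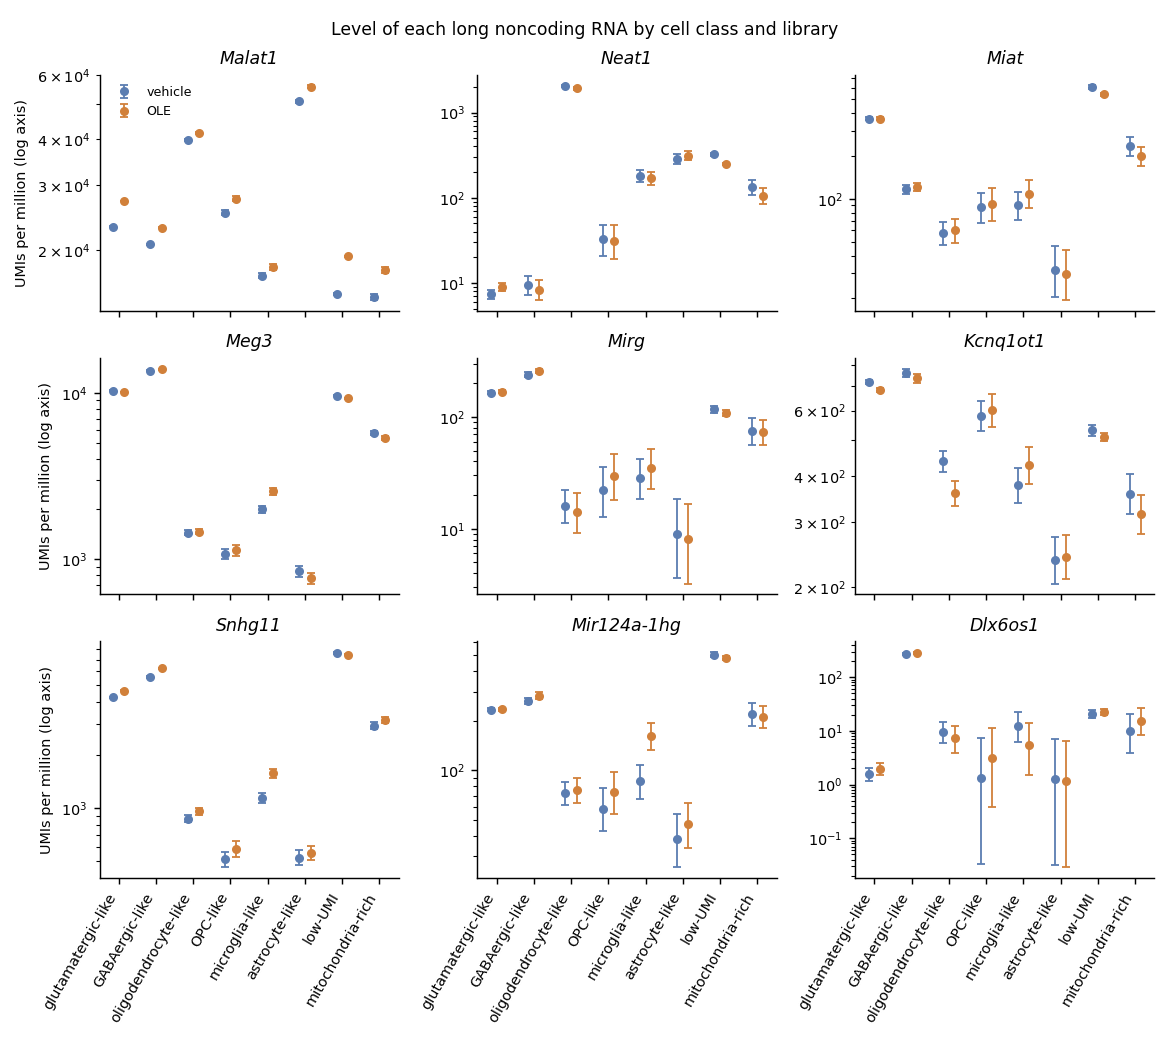
Level in CPM (UMIs per 1000000, log axis) of each long noncoding RNA in 6 marker-named cell classes, the low-UMI barcodes and the mitochondria-rich barcodes, for the vehicle and the OLE library. Points are summed UMIs of the class with exact Poisson 95% intervals (counting error only). Neat1 stands at 2029 CPM in oligodendrocyte-like and 7.40 in glutamatergic-like barcodes of vehicle, Dlx6os1 at 264.9 in GABAergic-like barcodes, and Snhg11, Miat and Mir124a-1hg are higher in the low-UMI barcodes than in either neuronal class.

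Among the 6 main classes, the one with the highest level was the same in both libraries for all 9 RNAs: GABAergic-like for 6, and glutamatergic-like, oligodendrocyte-like and astrocyte-like for 1 each. It stayed the same for all 9 when the members were left among the variable genes for clustering and when clusters were named by summed marker levels. Over the 25 clusters, both libraries summed, *Meg3* ran most closely with *Mirg* of 8081 genes compared (Pearson r = 0.981 on log2 of CPM + 10). Its next closest were *Grin1*, which encodes an NMDA receptor subunit, and *Clvs1* (both r = 0.970). *Snhg11* ran most closely with *Meg3* (r = 0.966) and *Miat* with B230334C09Rik (r = 0.943). *Neat1* ran most closely with *Sidt2* (r = 0.954) and the myelin gene *Cldn11* (r = 0.945), and *Dlx6os1* with *Dlx1as* (r = 0.972) and *Gad2* (r = 0.956). *Malat1* had no close partner, its highest values being *Hint3* at 0.778 and *Elp4* at 0.749, and *Kcnq1ot1* reached 0.878 with *Usp13*. *Malat1* and *Meg3* ran against each other over the clusters (r = -0.603), as did *Neat1* and *Meg3* (r = -0.746). These are descriptions over clusters that share the same 2 libraries and differ in depth.

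As a reading of nuclear content, the combined share of UMIs differed between classes, and so did the part of it that *Malat1* took. The median barcode devoted 4.54% of its UMIs to the 9 RNAs in the astrocyte-like class of vehicle and 5.14% in OLE, 3.69% and 4.00% in the glutamatergic-like class, and 1.98% and 2.14% in the microglia-like class. Without *Malat1* the astrocyte-like class was no longer above the neuronal ones: the medians were 0.200% and 0.200% in astrocyte-like, 0.373% and 0.423% in microglia-like, 1.58% and 1.57% in glutamatergic-like and 2.08% and 2.13% in GABAergic-like barcodes. The same share of 9 RNAs therefore does not stand for the same mixture of transcripts in neurons and glia.

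The combined share was higher at greater depth in all 6 main classes by rank correlation, least so in microglia-like barcodes (0.259 over 335 and 0.104 over 270 barcodes). In oligodendrocyte-like barcodes of vehicle, the median was 2.73% under 2000 UMIs, 3.69% from 2000 to 5000 and 5.57% from 5000 to 15000, and in OLE 2.67%, 4.00% and 6.13%. In astrocyte-like barcodes it went from 2.94% to 5.43% in vehicle and from 3.78% to 5.74% in OLE between the bins of 2000 to 5000 and 5000 to 15000 UMIs. Over these barcodes, the Spearman correlation of the share with total UMIs was 0.686 (n = 587) and 0.645 (n = 529) in the oligodendrocyte-like and 0.827 (n = 122) and 0.596 (n = 136) in the astrocyte-like class. It was 0.588 (n = 101) and 0.655 (n = 84) in OPC-like, 0.288 (n = 1590) and 0.369 (n = 1520) in glutamatergic-like and 0.313 (n = 325) and 0.361 (n = 351) in GABAergic-like barcodes, with barcodes of a library sharing preparation and free RNA. In the low-UMI barcodes the share hardly moved with depth: in vehicle it was 3.30%, 3.48% and 3.49% in the same 3 bins, in OLE 3.58%, 3.78% and 3.79%, and the correlations were 0.152 (n = 2488) and 0.0800 (n = 2039). The members did not rise alike. In oligodendrocyte-like barcodes of vehicle, *Malat1* took 2.30%, 3.56% and 5.18% of summed UMIs in the 3 bins and *Meg3* 0.263%, 0.151% and 0.111%. In astrocyte-like barcodes of vehicle, *Malat1* went from 2.86% to 5.59% and *Meg3* from 0.135% to 0.0720%. *Malat1* rose and *Meg3* fell in OLE too in both classes. The combined share without *Malat1* by depth is not given here.

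**Figure D2:**
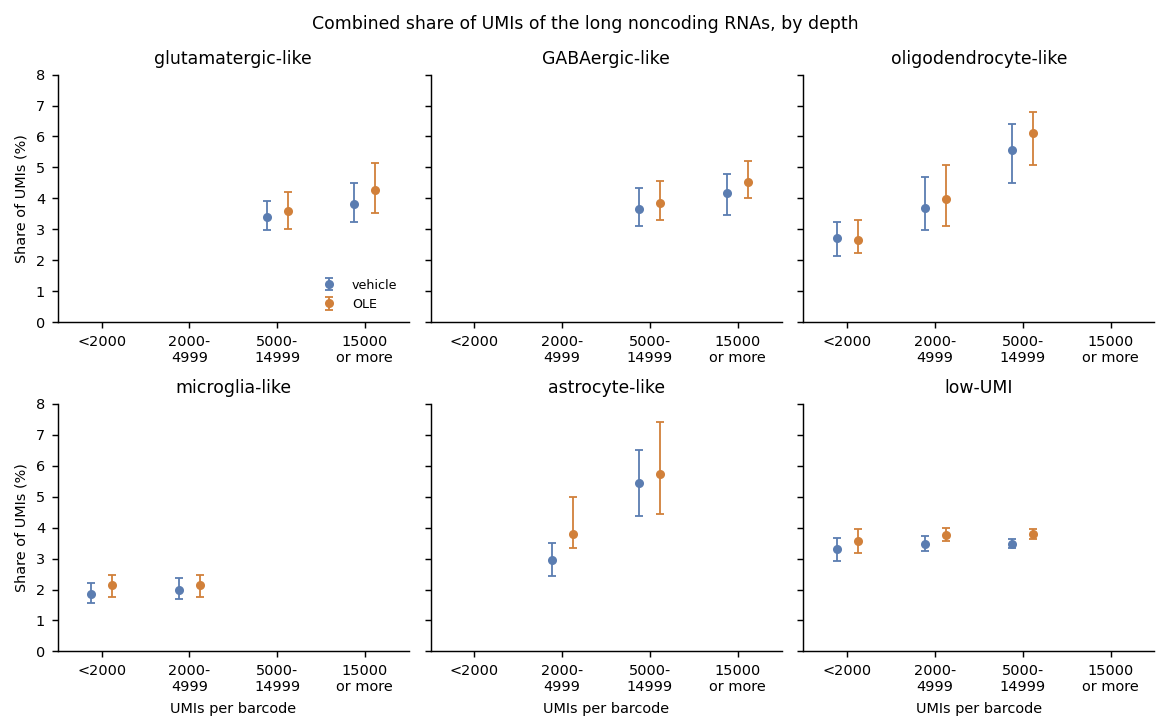
Share of UMIs (percent) taken by the 9 long noncoding RNAs together, by bin of UMIs per barcode, in 6 classes and both libraries. Points are medians over barcodes and bars the quartiles; bins with under 20 barcodes are left out. The median climbs from 2.73% to 5.57% over 3 bins in oligodendrocyte-like barcodes of vehicle and stays between 3.30% and 3.49% in the low-UMI barcodes of vehicle. Over those oligodendrocyte-like bins Malat1 rose from 2.30% to 5.18% of summed UMIs and Meg3 fell from 0.263% to 0.111%.

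The share moved against the cytoplasmic readings in most classes. Its Spearman correlation with the mitochondrially encoded share was between -0.0770 and -0.345 in both libraries of the 6 main classes, and that with the share of 80 cytosolic ribosomal protein genes between -0.105 and -0.401. In the mitochondria-rich barcodes, where mitochondrially encoded transcripts took a median of 7.16% (vehicle) and 5.38% (OLE) of UMIs, the 9 RNAs took 2.24% and 2.62%, and the correlations with the mitochondrial share were -0.412 and -0.269. Shares of one total constrain each other, so part of these signs follows from the arithmetic. The correlations were also not matched for depth, with which the combined share rose. In oligodendrocyte-like barcodes of vehicle, the median mitochondrial share was 0.846% under 2000 UMIs and 0.391% from 5000 to 15000. The median ribosomal share was 0.203% and 0.102% in the same bins. The part of depth in these signs was not tested. In the low-UMI barcodes the correlations with the mitochondrial share were 0.0440 and 0.0220, and their mitochondrial share was narrow, with quartiles of 0.820% and 1.15% in vehicle and 0.882% and 1.13% in OLE.

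The low-UMI barcodes were more alike in *Malat1* and *Meg3* than those of any named class shown. Each barcode was thinned to 1000 UMIs and the variance of a member's UMIs over barcodes was divided by its mean, a ratio that is close to 1 where barcodes differ by counting alone. For *Malat1* the ratio was 1.09 in low-UMI barcodes of vehicle (n = 2372) and 1.11 in OLE (n = 1906). It was 3.99 and 4.83 in glutamatergic-like, 6.67 and 9.45 in oligodendrocyte-like, 9.12 and 10.3 in astrocyte-like and 1.88 and 2.47 in microglia-like barcodes. For *Meg3* it was 1.10 and 1.03 in low-UMI barcodes against 2.04 and 2.05 in glutamatergic-like and 2.61 and 2.58 in GABAergic-like ones, and for *Snhg11* 1.12 and 1.08 against 1.21 and 1.24 in glutamatergic-like ones, with lower or like values in oligodendrocyte-like barcodes of OLE (1.02) and vascular leptomeningeal-like barcodes of vehicle (1.09). Thinning left out 116 vehicle and 133 OLE low-UMI barcodes, and 1 vehicle and no OLE oligodendrocyte-like barcode. Because the low-UMI barcodes were grouped for being alike in the genes used for clustering, this is a description of the group and not a test.

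**Figure D3:**
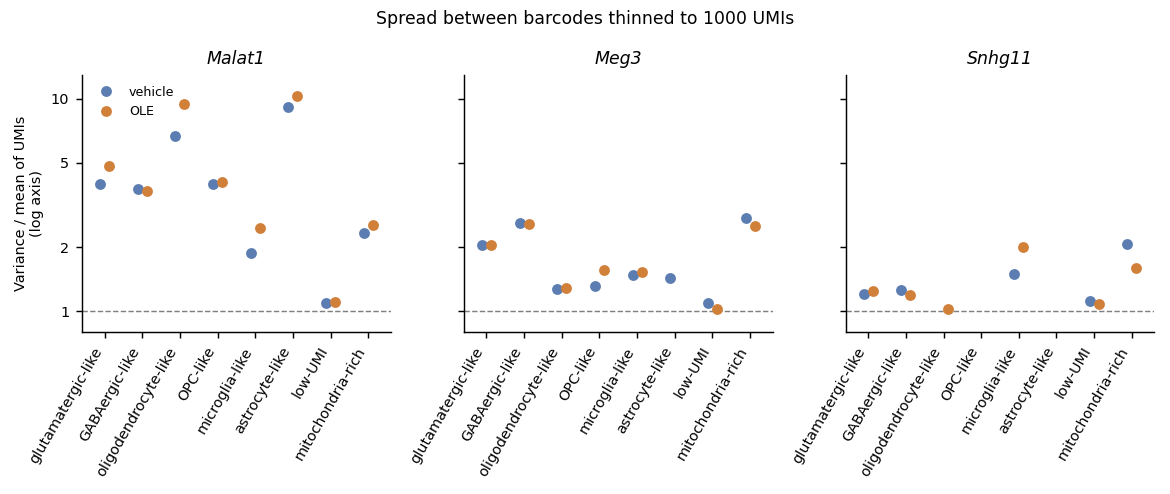
Variance divided by mean (log axis) of the UMIs of Malat1, Meg3 and Snhg11 over barcodes thinned to 1000 UMIs, by class and library; the dashed line at 1 is what counting alone gives. Classes with a mean under 1 UMI are left out. Malat1 stands at 1.09 and 1.11 in the low-UMI barcodes and at 9.12 and 10.3 in astrocyte-like barcodes.

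In composition, the low-UMI barcodes differed from the glutamatergic-like class by member. Their *Meg3* level was close to that of glutamatergic-like barcodes (93.3% of it in vehicle and 91.5% in OLE), and so was the median of the 14 glutamatergic markers (108% and 102.5%, with single markers from 53.7% to 299% and from 42.4% to 242%), while *Malat1* was lower (65.4% and 70.7%). *Mir124a-1hg* stood at 215% and 204%, *Snhg11* at 179% and 160.1% and *Miat* at 166% and 148% of the glutamatergic-like level. The low-UMI barcodes also held *Neat1*, which is oligodendrocytic in these data, at 323.5 and 249.4 CPM, and *Dlx6os1*, which is GABAergic, at 20.8 and 22.7 CPM. Whether both occur in the same barcodes was not tested. What these barcodes are was not tested.

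The neuronal members were also counted in glia, and there they can be set against the low-UMI barcodes of the same library. In oligodendrocyte-like barcodes, *Meg3*, *Snhg11*, *Mirg*, *Mir124a-1hg* and *Miat* stood at 9.42% to 15.0% of their low-UMI level in vehicle and 11.1% to 15.8% in OLE. In astrocyte-like barcodes the same 5 stood at 5.24% to 8.83% and 5.50% to 9.78%, and in microglia-like barcodes at 14.8% to 24.4% and 20.05% to 33.7%. The 14 glutamatergic markers had medians of 28.65% and 27.3% in oligodendrocyte-like, 18.2% and 15.0% in astrocyte-like and 40.2% and 41.7% in microglia-like barcodes on the same scale. *Kcnq1ot1* departed from this pattern, at 82.3% and 70.4% in oligodendrocyte-like, 44.6% and 47.4% in astrocyte-like, 71.1% and 83.9% in microglia-like and 109% and 118% in OPC-like barcodes. *Malat1* was above its low-UMI level in every main class except the microglia-like class of OLE (93.6%). The part of free RNA in the levels of *Meg3*, *Snhg11*, *Mirg*, *Mir124a-1hg* and *Miat* in glia was not tested.

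**Figure D4:**
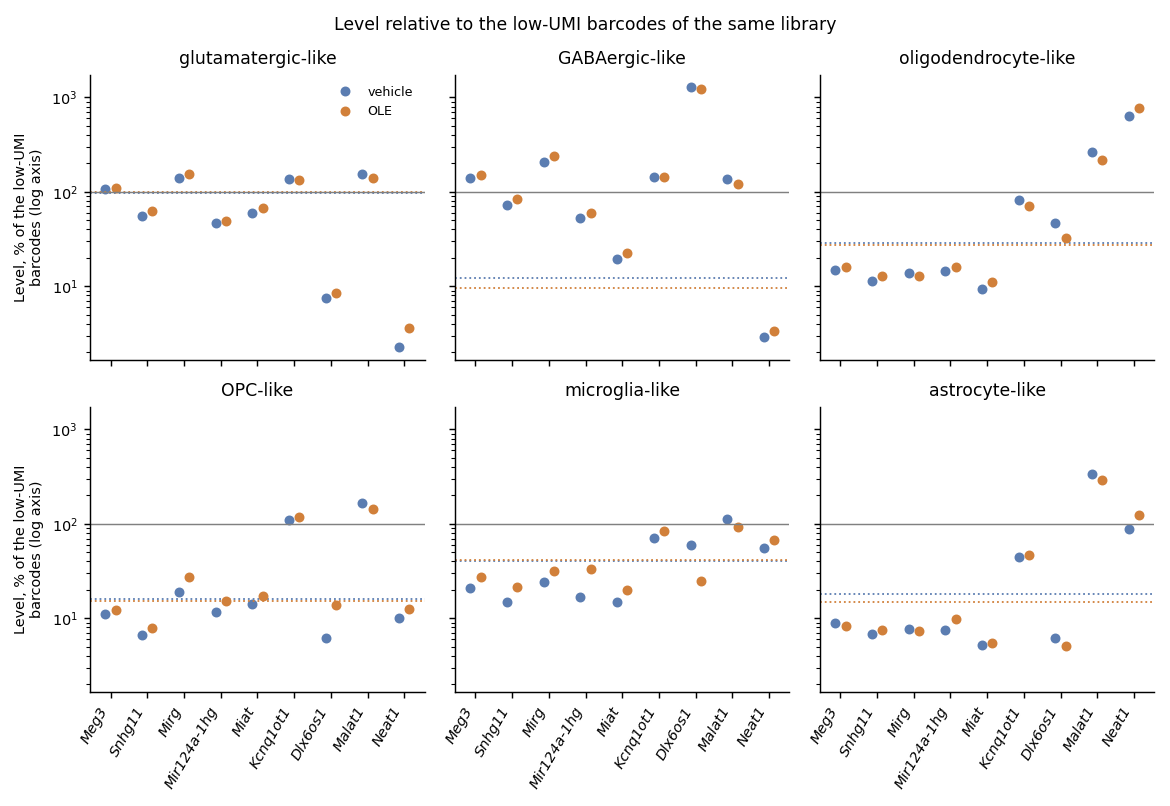
Level of each long noncoding RNA in 6 classes as percent of its level in the low-UMI barcodes of the same library (log axis). The solid line is 100% and the dotted lines are the medians of 14 glutamatergic marker genes on the same scale for each library. In oligodendrocyte-like and astrocyte-like barcodes Meg3, Snhg11, Mirg, Mir124a-1hg and Miat lie together between 5.24% and 15.8%, and Kcnq1ot1 lies apart at 44.6% to 82.3%.

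Between the libraries, *Malat1* was higher in OLE than in vehicle in all 8 classes and in 25 of 25 clusters. The other members showed no shift shared by all classes. *Snhg11* came nearest, above 0 in 23 of 25 clusters and at -0.037 in the low-UMI barcodes. In glutamatergic-like barcodes *Malat1* stood at 23130 CPM in vehicle and 27160 in OLE (log2 ratio 0.23, 0.227 to 0.236), and the 10 clusters of the class lay between 0.09 and 0.38. The ratio was 0.15 in GABAergic-like, 0.13 in astrocyte-like and OPC-like, 0.08 in microglia-like and 0.07 in oligodendrocyte-like barcodes. It was larger in the low-UMI barcodes, at 0.34 (0.333 to 0.355), where each of the 2 clusters gave 0.43 and 0.35, and 0.245 in mitochondria-rich barcodes. With the scaling, filters and clustering varied it was above 0 in all 95 values over these 8 classes, from 0.05 to 0.354. Over whole libraries it was 0.20, and also 0.20 without the low-UMI and mitochondria-rich barcodes. At matched depth in glutamatergic-like barcodes, *Malat1* took 1.82% of UMIs in vehicle and 2.12% in OLE from 5000 to 15000 UMIs, and 2.39% and 2.84% above 15000. In glutamatergic-like barcodes the share of cytosolic ribosomal protein genes moved the same way, from 0.0745% to 0.106% of UMIs. There 55 of its 74 measured genes were at least 0.25 higher in OLE, where 19.9% of all 13561 genes were. The ribosomal share also rose in GABAergic-like (0.0842% to 0.1195%), oligodendrocyte-like (0.160% to 0.219%) and microglia-like barcodes (0.314% to 0.405%). It rose as well in astrocyte-like (0.157% to 0.180%, with 1 gene measured) and low-UMI barcodes (0.203% to 0.256%). Among the classes with a measured gene of this set, it moved the other way only in mitochondria-rich barcodes, from 1.88% to 1.645%. There 5 of its 57 measured genes were at least 0.25 higher and 19 lower, where 27.1% and 16.8% of all genes were. The part of the ribosomal share in the *Malat1* difference was not tested. A difference between preparations cannot be told apart from one between treatments.

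A log2 ratio of at least 0.25 in either direction, the fold-change limit of the study's methods, was used to count members, over genes with at least 100 UMIs in both libraries together. In glutamatergic-like barcodes 2 of 9 members were past it and higher, *Neat1* and *Dlx6os1*, and none lower, where 19.9% of 13561 genes were higher and 3.30% lower. Both are near their floor in this class. *Neat1* had 272 UMIs in vehicle and 294 in OLE, with a ratio of 0.285 (0.042 to 0.528), and *Dlx6os1* 57 and 63 UMIs, with a ratio of 0.32 (-0.223 to 0.860). The median of the 9 was 0.03, against 0.06 for all genes of the class. Without removal of doublets and with log-normalised clustering the count was 0. In GABAergic-like barcodes none of 9 passed the limit, where 25.5% of 9660 genes were higher and 4.48% lower, and the members ran from -0.16 to 0.17. *Snhg11* stood at 0.12 in glutamatergic-like and 0.17 in GABAergic-like barcodes and was above 0 in all 10 glutamatergic-like clusters, from 0.055 to 0.210, while *Meg3*, at -0.025 and 0.026, stayed within -0.11 and 0.05 in them. The median of all genes was itself 0.061 in glutamatergic-like and 0.084 in GABAergic-like barcodes. With median-of-ratios scaling *Snhg11* stood at 0.06 and 0.085 in these 2 classes.

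In glia the counts differed between classes. In oligodendrocyte-like barcodes 1 of 7 members was past the limit, where 18.1% of 5846 genes were higher and 11.3% lower: *Kcnq1ot1* went from 955 UMIs (437.5 CPM) to 638 (358.5), a ratio of -0.29 (-0.434 to -0.141). None of 5 members passed in OPC-like barcodes (15.6% of 2584 genes higher and 16.5% lower) and none of 5 in astrocyte-like barcodes (15.3% of 3033 genes higher and 17.7% lower). *Neat1* in its main class, the oligodendrocyte-like one, stood at -0.08 (-0.141 to -0.011).

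In microglia-like barcodes 4 of 7 members were at least 0.25 higher in OLE and none lower, where 14.6% of 3667 genes were higher and 16.1% lower. *Mir124a-1hg* went from 75 UMIs (85.6 CPM) to 116 (161.4), a ratio of 0.915 (0.484 to 1.354). *Snhg11* went from 1147 to 1583 CPM (0.465, 0.342 to 0.589), *Meg3* from 1992 to 2559 (0.36, 0.266 to 0.456) and *Miat* from 79 to 78 UMIs in unequal totals (0.27, -0.202 to 0.738). All 4 are neuronal in these data. With each barcode weighted equally, 1 of the 4 stayed past the limit: *Mir124a-1hg* was at 0.67, *Meg3* at 0.20, *Snhg11* at 0.20 and *Miat* turned to -0.112. Without doublet removal *Mir124a-1hg* was at 0.537, *Snhg11* at 0.230 and *Meg3* at 0.034. Thinned to 1000 UMIs, *Snhg11* was found in 66.5% of microglia-like barcodes in vehicle and 67.2% in OLE and *Meg3* in 84.1% and 85.4%. *Mir124a-1hg* was found there in 8.08% (27 of 334, 5.395 to 11.54%) and 10.8% (29 of 268, 7.368 to 15.17%), intervals that overlap. Thinned to 500 UMIs, *Snhg11* was found in 38.2% (33.0 to 43.6%) and 49.3% (43.2 to 55.4%) and *Meg3* in 64.5% and 62.6%. *Mir124a-1hg* was found at that depth in 3.88% (2.082 to 6.545%) and 7.78% (4.879 to 11.64%). At 1000 UMIs the variance over mean of *Snhg11* was 1.49 and 2.01. The glutamatergic markers, 14 genes, stood at a median of 50.4% of their glutamatergic-like level in microglia-like barcodes of vehicle (19.5% to 102%) and 46.15% in OLE (15.7% to 105%). Relative to the low-UMI barcodes they stood at a median of 40.2% and 41.7%, so that the direction depended on the reference. Their part in the result was not tested.

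In the low-UMI barcodes 1 of 9 members was past the limit and higher (*Malat1*, 0.34) and 1 lower (*Neat1*), where 13.5% of 11514 genes were higher and 6.79% lower. *Neat1* went from 323.5 to 249.4 CPM, a ratio of -0.375 (-0.459 to -0.291), and was also lower in each of the 2 clusters alone, at -0.68 and -0.43. *Miat* stood at -0.17, and the remaining members lay between -0.11 and 0.12. In mitochondria-rich barcodes 1 of 8 was past the limit, where 27.1% of 3088 genes were higher and 16.8% lower: *Neat1* went from 95 to 88 UMIs, a ratio of -0.35 (-0.781 to 0.087).

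**Figure D5:**
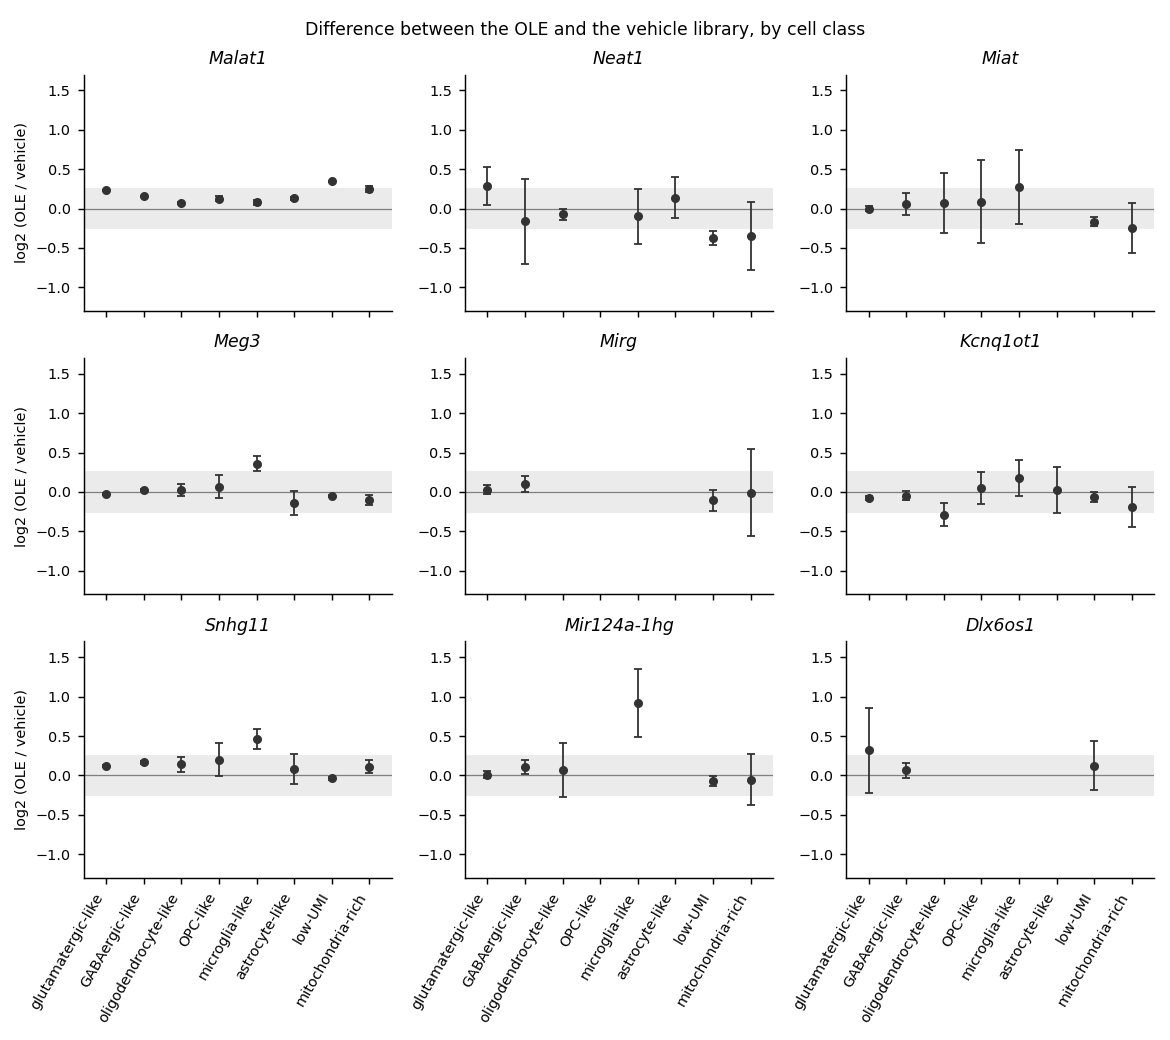
Log2 ratio of OLE over vehicle CPM for each long noncoding RNA by class, with exact 95% intervals (counting error only, 1 library per condition). The grey band spans -0.25 to 0.25, and classes in which a gene had under 100 UMIs are left out. Malat1 lies above 0 in all 8 classes, from 0.07 to 0.34, and the points above the band in microglia-like barcodes are Mir124a-1hg, Snhg11, Meg3 and Miat.

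Genes beside the members in the genome were followed in glutamatergic-like barcodes. *Kcnq1*, a potassium channel gene that overlaps *Kcnq1ot1* on the opposite strand, had 2644 UMIs in vehicle and 3028 in OLE (log2 ratio 0.37, 0.293 to 0.444), while *Kcnq1ot1* stood at -0.07 (-0.098 to -0.046). Gm26906, which overlaps the end of *Meg3* on the opposite strand, had 279 and 316 UMIs (0.35, 0.116 to 0.590), and Gm26953, opposite *Miat*, had 229 and 282 (0.47, 0.217 to 0.731), while *Meg3* and *Miat* stood at -0.025 and -0.001. *Rtl1*, an imprinted gene on the opposite strand between *Meg3* and *Rian*, overlapping neither, was at 0.35 (0.125 to 0.581), from 301 and 341 UMIs. These 4 are at least 0.25 higher in OLE, as 19.9% of genes were. Only neighbours with at least 500 UMIs over both libraries were followed. Among these, the other 2 opposite-strand genes within 50 kb were *Ltbp3* (0.197, -0.002 to 0.396) and *Tpst2* (0.084, -0.104 to 0.271). On a member's own strand, *Frmd8* stood at -0.238 (-0.539 to 0.061), Gm26945 at -0.197 (-0.441 to 0.046), and *Ralgapb* and B830012L14Rik both at -0.069.

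Among related lists, 2 of 21 other nuclear noncoding RNAs measured in glutamatergic-like barcodes were at least 0.25 higher and 1 lower, with a median of 0.02, where 19.9% of all genes were higher and 3.30% lower. Those past the limit were Nrg3os, from 4233 to 5017 UMIs (0.42, 0.359 to 0.477), *Dlx1as*, from 61 to 70 UMIs (0.37, -0.145 to 0.891), and *Rmst*, a noncoding RNA of neuronal differentiation, from 5508 to 3822 UMIs (-0.35, -0.414 to -0.295). Of 20 proteins of speckles and paraspeckles, the bodies in which *Malat1* and *Neat1* reside, none passed the limit in glutamatergic-like barcodes. Their ratios ran from -0.11 to 0.23, the highest being those of the splicing factors *Srsf7* (0.23) and *Son* (0.21), and together they took 1.12% of UMIs in vehicle and 1.09% in OLE. Of 20 imprinted or neighbouring genes, 12 were measured and 5 were at least 0.25 higher and none lower, against the same 19.9% and 3.30% of all genes, led by *Ndn*, from 228 to 409 UMIs (1.02, 0.779 to 1.26). None of the 13 mitochondrially encoded transcripts passed the limit there, with a median of -0.07.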

How the data were processed

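Nuclei from the entorhinal cortex were sequenced as 2 droplet libraries, 1 per condition, each from 5 pooled mice. Per the labels and methods, the authors aligned and counted reads with Cell Ranger 3.0.1 (the matrix headers name 3.0.2) and used Seurat 4.0.4. The deposited values are whole-number UMI counts per gene and barcode. Whether counting used strand is not given in the sources used here. The text names both a HiSeq and a NextSeq instrument.

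The members and gene lists were chosen with earlier results of these data known. Scrublet scores (scanpy 1.11.5) called 0.104% and 0.130% of barcodes as doublets, too few to have worked, so the 5% of barcodes with the highest score per library were removed. Counts were normalised with SCTransform (sctransform 0.4.2, Seurat 5.3.0, R 4.3.3) and clustered on 30 components of 3000 variable genes without the members, at resolution 0.4. A cluster took the class whose markers had the highest median level relative to their highest cluster, if that was at least 25% and at least 3 markers reached 25% and were found in 10% of its barcodes, a rule set after the clusters were seen. Clusters with under 10000 UMIs and none of the markers among their leading genes stayed unnamed. So did clusters where another class had more of its markers among those genes. By that rule the clusters led by *Il1rapl2*, *Sntb1* and *Cpa6* stayed unnamed. Their glutamatergic markers had median relative levels of 0.325, 0.341 and 0.29. Unnamed clusters were grouped by UMIs and mitochondrial share. UMIs were summed per class and library and scaled to 1000000 UMIs per class and library (CPM). Levels carry exact Poisson intervals, ratios exact conditional binomial intervals and shares Clopper-Pearson intervals, all at 95%. Coverage on simulated counts was 95.2% over 13561 genes for glutamatergic-like and 96.5% over 3667 genes for microglia-like barcodes. Between real barcodes *Malat1* spread more than by counting alone (variance over mean 3.99 and 4.83 in glutamatergic-like barcodes). The intervals leave that spread out. Genes under 100 UMIs in both libraries together were left out of counts. Coordinates are those of GENCODE vM21 on GRCm38, which matched 30934 of 31053 genes. Promoters and microRNAs are from RefSeq. Named genes were the members, the 3 genes closest in pattern to each, neighbours within 50 kb and the widest of each list. Neighbours needed at least 500 UMIs over both libraries. Some genes that this rule names are not reported here. Alternatives changed the scaling, weighting, count minimum, doublet removal, barcode filters, clustering and thinning. Python 3.11.15, numpy 2.4.6, scipy 1.17.1, pandas 2.3.3 and matplotlib 3.10.9 were used.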

Additional observations from a re-analysis of the deposited data

How the results depend on the processing

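With 1 library per condition, no value separates treatment from preparation, pooled mice or cell recovery, and the intervals cover counting error only. No paired analysis was possible because each condition has a single library and the result comes from no test. Of 621 values of single members under an alternative, 557 moved by less than their counting interval, 61 moved by more and 3 that had been at least 0.25 from 0 changed sign, all for *Miat* in microglia-like barcodes: -0.112 with barcodes weighted equally, -0.109 without doublet removal and -0.060 with log-normalised clustering. Values nearer 0 changed sign too. Without doublet removal *Meg3* became -0.360 and *Snhg11* -0.198 in oligodendrocyte-like, and *Meg3* 0.572 and *Neat1* -0.197 in astrocyte-like barcodes. With median-of-ratios scaling *Meg3* became -0.058 in GABAergic-like, and *Mirg* -0.031 and *Mir124a-1hg* -0.055 in glutamatergic-like barcodes. With equal weights *Mirg* became -0.023 in the latter and *Meg3* 0.033 in mitochondria-rich barcodes, and without the unnamed low-UMI and mitochondria-rich classes *Mirg* became 0.042 in the whole library.

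The number of members at least 0.25 from 0 was as follows. In glutamatergic-like barcodes (2) it was 1 with median-of-ratios scaling, equal weights, a minimum of 500 UMIs or members among the variable genes, and 0 without doublet removal or with log-normalised clustering. In microglia-like barcodes (4) it was 1 with equal weights, without doublet removal and with log-normalised clustering, and 2 at 500 UMIs. In GABAergic-like barcodes (0) it was 1 with equal weights and without doublet removal. Over all genes 23.2% passed in glutamatergic-like barcodes, 20.2% with median-of-ratios scaling, 14.8% at 500 UMIs and 24.1% with members among the variable genes. Without doublet removal and with log-normalised clustering 22.8% passed there. In microglia-like barcodes 30.8% passed, 30.9% without doublet removal, 33.9% with log-normalised clustering and 15.3% at 500 UMIs. In GABAergic-like barcodes 30% passed, and 28.3% without doublet removal. In oligodendrocyte-like barcodes (1) the number of members was 2 with no minimum and 3 without doublet removal. In OPC-like barcodes (0) both gave 3, and in astrocyte-like barcodes (0) they gave 1 and 6. Over all genes, 58.3%, 68.5% and 59.6% passed in these 3 classes with no minimum and 32.1%, 36.9% and 37.0% without doublet removal, against 29.4%, 32.2% and 33.0%. In mitochondria-rich barcodes (1) the number of members was 2 with median-of-ratios scaling, equal weights, no minimum or resolution 0.8. It was 3 with members among the variable genes, 4 without barcodes under 2000 UMIs and 0 at 500 UMIs. Over all genes 44% passed there, 45% with median-of-ratios scaling, 60.8% with no minimum and 50.2% at resolution 0.8. The share was 44.9% with members among the variable genes, 56% without barcodes under 2000 UMIs and 39.5% at 500 UMIs. Shares of all genes with equal weights are not given here.

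The members' median log2 ratio became -0.031 with median-of-ratios scaling in glutamatergic-like barcodes and 0.479 without doublet removal in astrocyte-like ones. In mitochondria-rich barcodes it became 0.005 at 500 UMIs, -0.149 without barcodes of at least 5% mitochondrial UMIs and -0.263 without those under 2000 UMIs. The combined share (vehicle and OLE) without *Malat1* was 1.608% and 1.624% in glutamatergic-like, 1.936% and 1.862% in low-UMI and 0.9703% and 0.9439% in mitochondria-rich barcodes. With *Malat1*, its median over barcodes was 3.694% and 3.997% in glutamatergic-like and 2.243% and 2.623% in mitochondria-rich barcodes, where leaving out barcodes of at least 5% mitochondrial UMIs gave 2.831% and 2.879%. The causes were not tested. Leaving out either low-UMI cluster, or both unnamed classes from the whole library, was chosen after seeing the data. Without the first or the second low-UMI cluster, 2 and 3 members passed the limit there. Over all genes 20.3% passed in the 2 clusters together, and the share without either is not given here.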
